A study of Mus musculus with 28 samples.

Results

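The 37 genes described here are PPARalpha (Ppara), established targets of this receptor in mouse liver, and enzymes and transporters of fatty acid oxidation. They were chosen by name, from what is known of the pathway, and with earlier results of these data known. They were found on the array by the gene name printed in the scanner output, with Dci read as Eci1 and Peci as Eci2. All 37 were on the array, with 51 probes, and all 37 passed the filter on dim signals among the 21851 genes tested. A gene with several probes was represented by its brightest one. Their expression was compared across 5 diets in 28 male C57/6J mice, with 1 Agilent 1-colour array for the liver of each mouse. Feeding began at an age of 7 weeks and lasted 26 weeks, to an age of 33 weeks. A high fat diet was supplemented with 0.4% quercetin (4 g per kg of diet, HQ, n = 5), with 0.4% resveratrol (4 g per kg, HR, n = 6) or with 0.2% of each (2 g per kg of each, HQR, n = 6). The high fat diet without a supplement (HFD) was fed to 6 mice and a standard diet (SD) to 5 mice. Quercetin is a plant flavonol and resveratrol a plant stilbene. The supplements were given only on the high fat diet, so their effect on the standard diet is not part of the design. Per the labels, the degraded RNA of a small number of further mice was not hybridised.

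PPARalpha is a nuclear receptor that fatty acids and their derivatives activate. It binds DNA as a dimer with the retinoid X receptor, at a direct repeat of the core AGGTCA with a spacer of a single base. In liver it is known for switching on fatty acid uptake into mitochondria and peroxisomes, beta oxidation in both organelles, omega oxidation in the endoplasmic reticulum and ketone body production, most of all during fasting. The Cyp4a enzymes, acyl-CoA thioesterases and the peroxisomal bifunctional enzyme Ehhadh are the textbook responders in rodents.

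A match to that repeat was looked for in the promoters of the genes, because the binding site is what the targets are thought to share. The RefSeq promoter table (GRCm38.p6) held a window of 300 bases, 250 before and 50 after the gene start, for 28 of the 37 genes. The motif searched was AGGTCA, any 1 base and AGGTCA again, 13 bases in all, on both strands and with up to 2 mismatches. It was found in 3 of the 28 genes (10.7%), against 4.40% of all 27025 symbols with a window. The 3 stretches are given 5′ to 3′ on the strand of the gene, with the 13 bases of the match in capitals.
Fabp1: acaatcacTGACCTATGGCCTatatctgag
Acot4: ccgaagcaTGACCTTTGGCCGgtctgtgcc
Slc25a20: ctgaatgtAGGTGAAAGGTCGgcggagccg
The Fabp1 stretch lies at chr6:71199804-71199833 on the plus strand. Its match has 1 mismatch, is in reverse orientation and starts at -67 relative to the gene start. The Acot4 stretch lies at chr12:84038358-84038387 (plus strand), and its match, with 2 mismatches and in reverse orientation, starts at -13. The Slc25a20 stretch lies at chr9:108662134-108662163 (plus strand), and its match, with 2 mismatches and in forward orientation, starts 6 bases after the gene start. A match of letters is not a measured binding site, and a window without one shows only that these letters are not in these 300 bases.

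Levels are log2 values of the processed signal minus each array's own 75th percentile, so that a step of 1 is a doubling. Differences between diets come from 1 limma model of all 28 arrays and carry the standard error (SE) of that model. A gene passed at a Benjamini-Hochberg adjusted p under 0.05 over all 21851 genes. Signals well above background came from 59.3% to 82.1% of an array's probes, and no spot was saturated. The 28 arrays lay on 9 slides. The 3 arrays of slide 8, 1 each of HR, HQR and HFD, had the largest shares of probes above background. All 5 measured hepatocyte markers (Alb, Apoa2, Cps1, Tat and Ttr) were well above background on all 28 arrays. In liver homogenate, fewer cells of a type and less RNA per cell cannot be told apart. Of the 37 genes, 34 were well above background on every array. Abcd2 was so on 15 arrays, Acot2 on 6 arrays (0 of HQ, 2 of HR, 0 of HQR, 2 of HFD and 2 of SD), and Acot3 on all but 1 HFD array. Cpt2 and Abcd3 lacked a value on HQ replicate 1, where the spot was flagged, so that HQ has n = 4 for both.

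No diet moved the set past the test. In limma, 0 of 37 genes passed in each of the 12 comparisons and in a moderated F test of any difference among the 5 diets. The background was as low: 0.114% of all genes passed in HFD against SD. Relative to HFD, 0% passed in HQ, 0% in HQR and 0.00915% in HR. Against SD, 0.0366% passed in HQ, 0.0549% in HR and 0.0503% in HQR, and the background was 0% in HQ against HR, in HQR against HQ and in HQR against HR. The mean of the 4 high fat groups against SD had 0.16%, the mean of the 3 supplemented groups against HFD 0.00458%, and the F test 0.105%. In the F test 4 of 37 genes were at an unadjusted p under 0.05 (background 3.96%), and the smallest adjusted p was 0.949, for Acot4. The 95% interval of a difference in HFD against SD reached 0.68 to either side at the median gene, which is 1.60-fold.

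At an unadjusted p under 0.05 there were 3 genes in HFD against SD, with a background of 6.14% of all genes. Against HFD there were 0 in HQ (background 2.13%), 1 in HR (4.92%) and 2 in HQR (1.36%). Against SD there were 2 in HQ (3.91%), 1 in HR (5.72%) and 7 in HQR (6.43%). The mean of the 3 supplemented groups against HFD had 0 (3.42%). The median difference over the 37 genes was -0.02 in HFD against SD, beside -0.04 over all genes, and -0.01 in HQ against HFD, beside -0.00. It was 0.22 in HR against HFD, beside 0.01, and -0.13 in HQR against HFD, beside 0.05. The 3 comparisons with HFD share the 6 HFD arrays. Above 0 were 17 of 37 genes in HFD against SD, where 44.6% of all genes were, and 18 in HQ against HFD (49.1%). In HR against HFD 24 of 37 were above 0 (52.1%), and in HQR against HFD 14 of 37 (58.4%). Against SD the counts above 0 were 14 in HQ (42%), 25 in HR (42.7%) and 15 in HQR (51.2%). These counts moved with the setting: HQ had 7 with normexp, HR had 32 with quantile normalization and 14 with array weights, and HQR had 29 with quantile normalization and slide as a block. The pooled high fat groups had 17 above 0 against SD (44.5%), and the pooled supplemented groups 22 above 0 against HFD (54%). The median level over the 37 genes, which is the level of the middle gene in a liver, had an SD of 0.583 between livers of the same diet. That is a spread of single livers and cannot be set against the differences between diets. No gene had HFD values that were all outside those of SD (0 of 37, background 1.33%), and none had HQ (0.165%), HR (0.389%) or HQR (0.0915%) values that were all outside those of HFD.

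**Figure D1:**
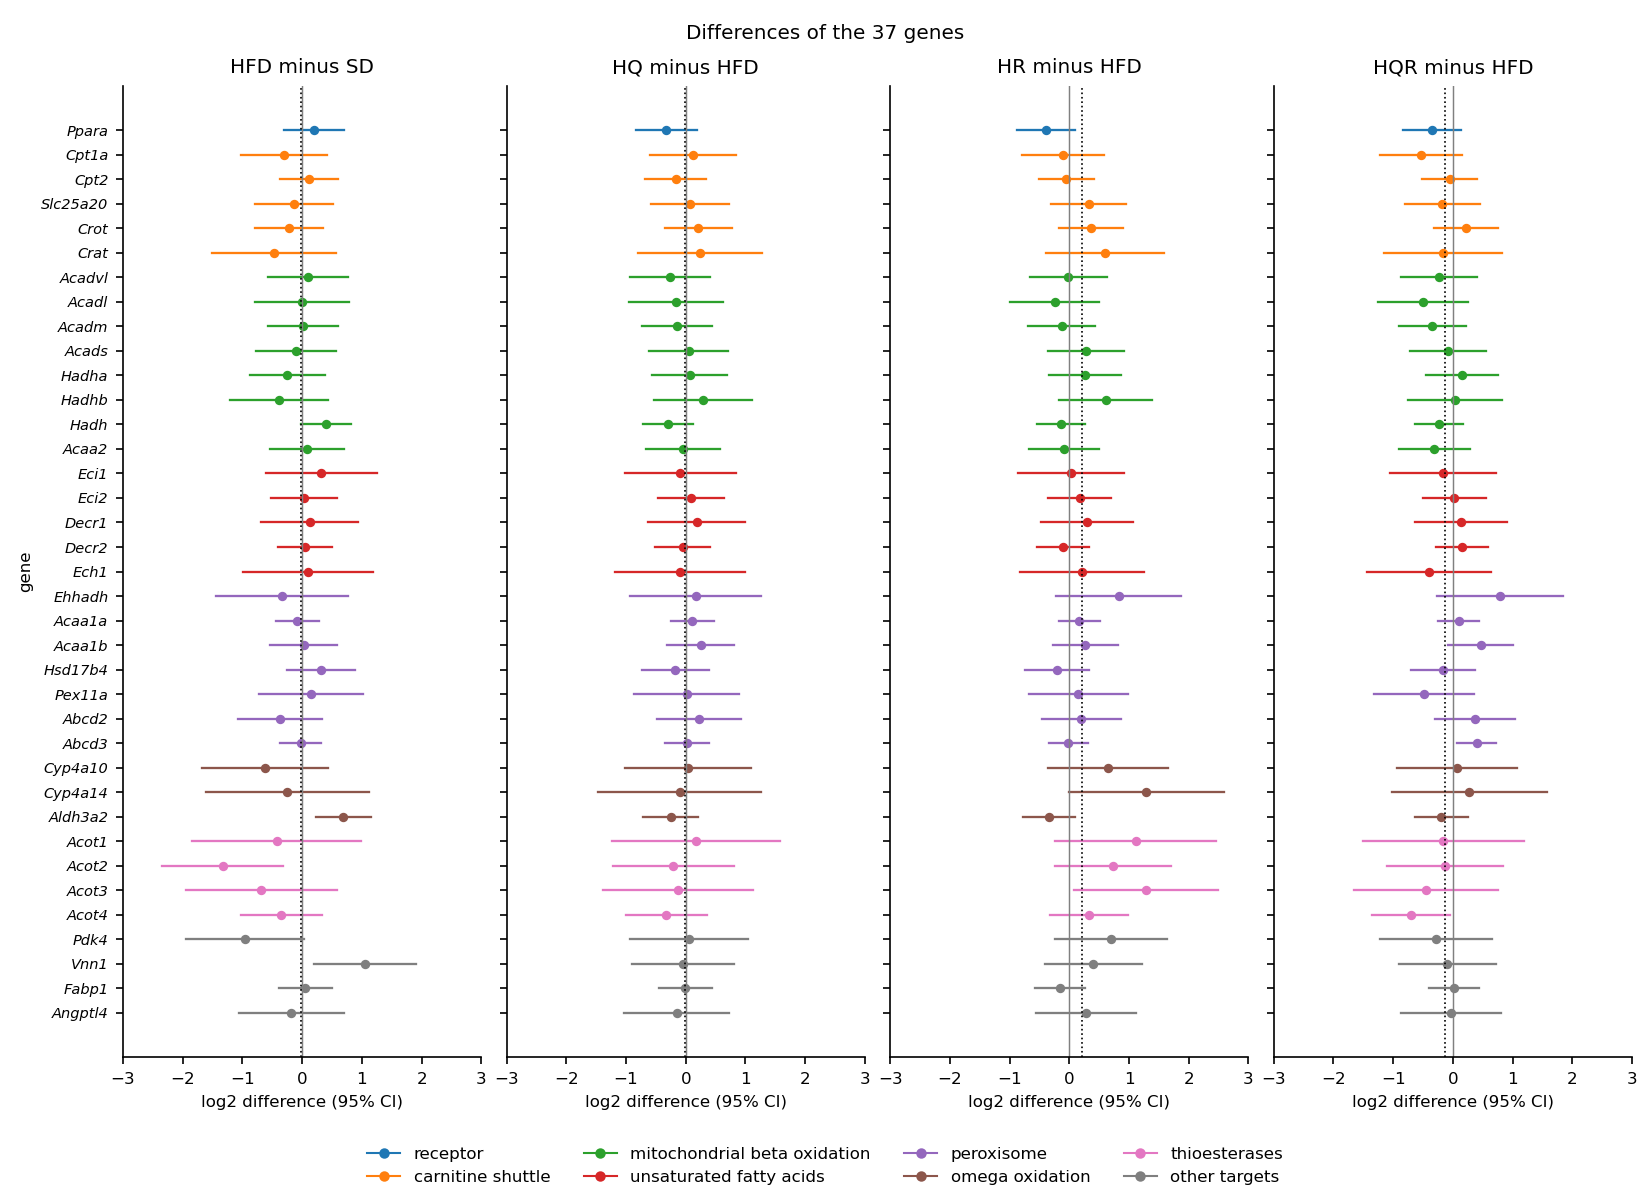
Differences of the 37 genes in HFD against SD and in HQ, HR and HQR against HFD (horizontal axis, log2), with 95% intervals from limma, genes down the page and coloured by role. The dotted line marks the median, which is -0.02, -0.01, 0.22 and -0.13 from left to right. Most intervals cross 0.

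The receptor itself did not pass in any comparison. Ppara, which encodes PPARalpha, had lowest, median and highest values of 5.58, 6.43 and 6.99 in HFD livers, against 5.56, 6.21, 6.68, 6.54 and 6.06 in the 5 SD livers. It had 5.43, 6.01, 6.74, 5.99 and 6.25 in HQ livers, and lowest, median and highest values of 5.59, 6.05 and 6.29 in HR and of 5.38, 6.19 and 6.38 in HQR livers. All groups overlapped. The difference was 0.20 ± 0.25 in HFD against SD (SE, adjusted p = 0.958). Each supplemented group had a lower mean than HFD, by -0.32 ± 0.25 in HQ, -0.38 ± 0.24 in HR and -0.34 ± 0.24 in HQR, and none of these passed. Above the HFD mean were 1 of 5 HQ, 0 of 6 HR and 0 of 6 HQR livers. With normexp background correction Ppara was lower by more, at -0.63 in both HQ and HR. In the slides that held both groups, Ppara was below HFD in 2 of 2 for HQ and 4 of 4 for HQR, and above it in 1 of 4 for HR. The probe lies at chr15:85631955-85632014 (mm9, plus strand).

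Of the high fat diets together against SD, 4 of 37 genes reached an unadjusted p under 0.05 (background 7.19%), with Vnn1 and Aldh3a2 higher and Acot2 and Pdk4 lower. Vnn1 encodes pantetheinase, which makes pantothenate and cysteamine, and is a PPARalpha target in mouse liver. Its levels were 2.74, 1.56, 3.07, 2.44 and 3.49 in HQ livers. Lowest, median and highest values were 2.48, 3.17 and 3.66 in HR, 1.94, 2.54 and 3.49 in HQR and 1.64, 2.78 and 3.48 in HFD livers. The SD livers had 0.77, 2.73, 2.78, 1.76 and 0.21. Of the 23 high fat livers, 21 lay above the SD mean, while SD replicates 2 and 3 lay within the range of every high fat group. The mean of the 4 high fat groups was higher by 1.12 ± 0.34 (2.17-fold, adjusted p = 0.250). Against SD, Vnn1 was higher by 1.05 ± 0.42 in HFD (adjusted p = 0.647), 1.01 ± 0.43 in HQ, 1.45 ± 0.42 in HR (adjusted p = 0.321) and 0.96 ± 0.42 in HQR. These 4 comparisons share the SD arrays. With slide as a block the pooled difference was 1.25 and passed (adjusted p = 0.0415), as it did with slide as a random block (1.20, adjusted p = 0.0277). With normexp background correction it did not pass. The number of all genes that passed in this comparison was 35 in the main fit and 18 to 203 by setting. In the 4 slides with both HFD and SD livers, HFD was higher in all 4, by 0.41 to 2.21. Leaving out 1 array at a time gave 0.76 to 1.40 for the pooled difference, with unadjusted p of 0.00054 to 0.0336. Some lists of cell type markers leaned to 1 side in the same comparison, where 44.5% of all genes were above 0, although no marker passed the adjusted test. Above 0 were 4 of 5 sinusoidal endothelium markers (median 0.52, 3 at an unadjusted p under 0.05) and 5 of 6 stellate cell markers (median 0.36, 2 at that p), and below 0 were all 5 hepatocyte markers (median -0.42, 1 at that p). Above 0 were also 3 of 7 Kupffer cell, 3 of 5 bile duct, 1 of 3 muscle, 2 of 2 erythrocyte and 3 of 3 lymphocyte markers. Below 0 were all 3 adipocyte markers (median -0.58) and the 1 brown adipocyte marker. None of these further markers was at that p. The mean sinusoidal level ran from 1.76 to 2.41 in HQ, 2.18 to 2.74 in HR, 1.63 to 2.36 in HQR, 0.87 to 2.17 in HFD and 1.08 to 2.10 in SD livers. The part of these markers in the Vnn1 difference was not tested.

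Aldh3a2, fatty aldehyde dehydrogenase, oxidises the fatty aldehydes formed in omega oxidation and in phytol breakdown. Its levels were 4.90, 4.17, 5.39, 5.09 and 4.92 in HQ livers. The lowest, median and highest values were 4.65, 4.74 and 5.18 in HR, 4.55, 4.98 and 5.28 in HQR and 4.72, 5.19 and 5.56 in HFD livers. The SD livers had 3.91, 5.13, 4.92, 4.45 and 3.89. All 6 HFD livers were above the SD mean, and the groups overlapped through SD replicates 2 and 3. Aldh3a2 was higher in HFD than in SD by 0.69 ± 0.22 (adjusted p = 0.498), and in the 4 shared slides by 0.20 to 1.36. The mean of the 4 high fat groups was higher than SD by 0.49 ± 0.18 (adjusted p = 0.438).

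Pdk4, the kinase that shuts off pyruvate dehydrogenase and so spares glucose, had 0.69, 0.19, 1.35, 1.15 and 1.88 in HQ livers. Livers of the larger groups had lowest, median and highest values of 1.12, 1.57 and 2.62 in HR, -0.19, 0.54 and 1.98 in HQR and 0.40, 0.92 and 2.08 in HFD livers. The SD livers had 1.83, 3.32, 3.42, 0.93 and 0.28, a range that contains all HR and HFD livers and all but the lowest HQ and HQR livers. The mean of the high fat groups was below SD by 0.84 on the log2 scale (-0.84 ± 0.39, adjusted p = 0.659). HFD alone stood at -0.95 relative to SD, and HQR at -1.24 ± 0.48 (adjusted p = 0.560). Acot2, a mitochondrial thioesterase, also had a lower mean in HFD than in SD (-1.33 ± 0.49, adjusted p = 0.596). This value is not exact, since only 2 of 6 HFD and 2 of 5 SD arrays measured Acot2 well above background, and no fold is given for HQ and HQR, where 0 arrays did. The probe read -4.84, -6.04, -5.01, -5.72 and -5.23 in HQ livers, -5.21, -4.81 and -2.35 (lowest, median and highest) in HR, -6.29, -5.11 and -4.93 in HQR and -5.86, -5.27 and -4.21 in HFD livers. The SD livers read -4.96, -4.31, -3.08, -1.95 and -4.86. Unlike Vnn1, these 3 genes lost an unadjusted p under 0.05 in the pooled high fat comparison when 1 array was left out. The differences then ran from -1.25 to -0.47 for Pdk4 (p up to 0.253), from 0.35 to 0.66 for Aldh3a2 (p up to 0.0806) and from -1.51 to -0.76 for Acot2 (p up to 0.0627).

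**Figure D2:**
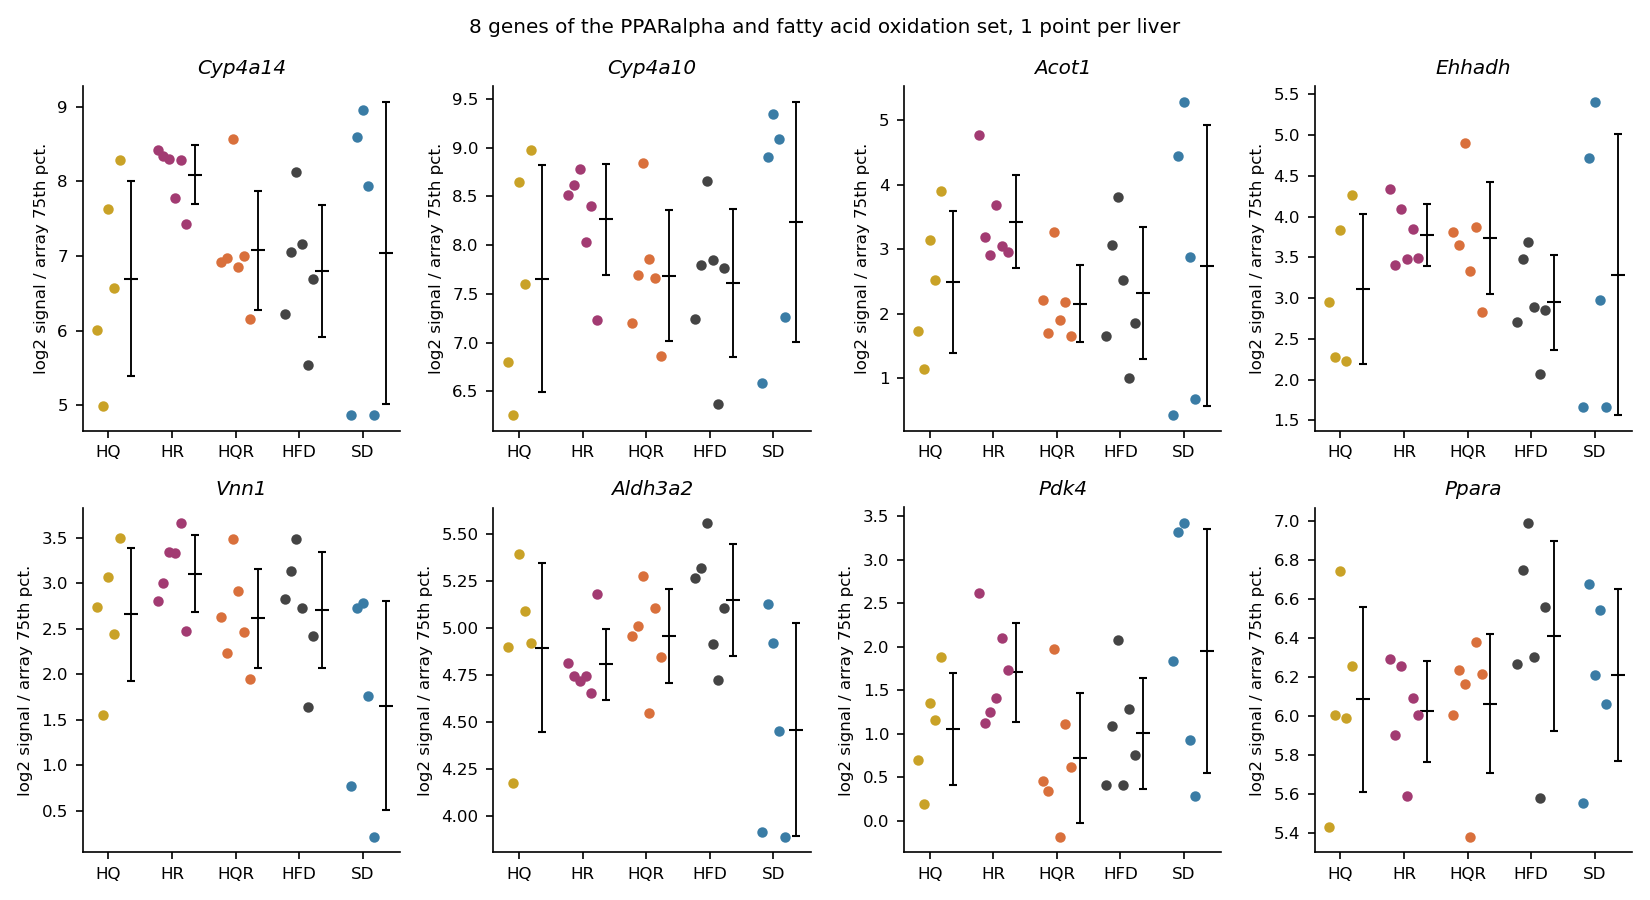
Log2 signal relative to the array's 75th percentile (vertical axes) in each liver for 8 of the genes, by diet; points are livers and black bars the mean ± SD of the diet (n = 5 for HQ and SD, n = 6 for HR, HQR and HFD). The SD livers split widely for Cyp4a14, Acot1, Ehhadh and Vnn1, and the 6 HR livers lie close together for Cyp4a14, between 7.42 and 8.42.

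The carnitine shuttle carries long-chain acyl groups into mitochondria. Its 5 measured genes had differences of -0.48 to 0.12 in HFD against SD (1 of 5 above 0). They had -0.17 to 0.23 in HQ, -0.10 to 0.59 in HR and -0.54 to 0.22 in HQR against HFD. Cpt1a, the rate-limiting outer membrane transferase, had 3.38, 3.49, 4.74, 3.79 and 4.51 in HQ livers. The lowest, median and highest values were 2.87, 3.88 and 4.35 in HR, 2.80, 3.38 and 3.66 in HQR and 2.58, 4.04 and 4.49 in HFD livers, and the SD livers had 3.44, 4.53, 4.94, 4.68 and 3.19. HQR livers had the lowest mean, and their highest value was under the mean of every other diet. The difference was -0.54 ± 0.33 from HFD (adjusted p = 0.987) and -0.84 ± 0.35 from SD (adjusted p = 0.672), and a second Cpt1a probe gave -0.47 for HQR against HFD. With slide as a block these Cpt1a differences were -0.31 and -0.41. The other 4 genes are Cpt2, the inner membrane transferase, Slc25a20, the carnitine-acylcarnitine translocase, and the short and medium chain carnitine transferases Crat and Crot. Crat stood out among them by its spread in SD, where its levels were 0.89, 4.45, 4.42, 3.14 and 2.02.

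The 8 genes of the mitochondrial beta oxidation spiral stayed within -0.39 and 0.40 in HFD against SD, with 4 above 0 and 4 below. They lay within -0.30 and 0.28 in HQ, -0.24 and 0.61 in HR and -0.50 and 0.15 in HQR against HFD. Acadvl, Acadl, Acadm and Acads are the acyl-CoA dehydrogenases of very long to short chains. Hadha and Hadhb form the trifunctional protein, Hadh is the short chain hydroxyacyl-CoA dehydrogenase, and Acaa2 is the thiolase. Acadm differed by 0.01 in HFD against SD, and relative to HFD it stood at -0.15 in HQ, -0.12 in HR and -0.35 in HQR. Hadh had lowest, median and highest values of 3.72, 4.15 and 4.48 in HFD livers, against 3.11, 3.85, 3.83, 3.93 and 3.86 in SD livers. It had 3.82, 3.00, 4.13, 3.83 and 4.31 in HQ, 3.66, 3.98 and 4.45 in HR and 3.56, 3.85 and 4.20 in HQR livers. The difference of 0.40 between HFD and SD did not reach an unadjusted p of 0.05 in the model, and the 4 shared slides gave 0.27 to 1.07. Hadhb had the largest difference of the 8 in HR against HFD, 0.61. The 5 genes that handle double bonds (Eci1, Eci2, Decr1, Decr2 and Ech1) were all slightly above 0 in HFD against SD, by 0.03 to 0.32. They lay between -0.09 and 0.18 in HQ, -0.10 and 0.29 in HR and -0.40 and 0.16 in HQR against HFD.

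Peroxisomes shorten very long chain and dicarboxylic acids. Ehhadh, their bifunctional hydratase and dehydrogenase, had 2.95, 2.27, 3.84, 2.23 and 4.26 in HQ livers. Lowest, median and highest values were 3.41, 3.67 and 4.34 in HR, 2.83, 3.73 and 4.91 in HQR and 2.06, 2.87 and 3.69 in HFD livers. The SD livers had 1.66, 4.71, 5.41, 2.98 and 1.67, which spans every other group. Ehhadh averaged 3.78 ± 0.38 in HR and 3.74 ± 0.69 in HQR, against 2.95 ± 0.58 in HFD (SD, n = 6 each). All 6 HR livers and 5 of 6 HQR livers were above the HFD mean, and the groups overlapped. The differences of 0.83 ± 0.51 and 0.79 ± 0.51 (SE) did not pass (adjusted p = 1.00 in HR and 0.987 in HQR). With slide as a block the HR difference of Ehhadh was 0.49 and the HQR difference 1.13. In the 4 slides shared with HFD, HR was higher in 2 (-0.22 to 1.43) and HQR in all 4 (0.51 to 1.27).

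Abcd3, a peroxisomal transporter of fatty acyl groups, had lowest, median and highest values of 6.40, 6.81 and 6.98 in HQR livers, against 6.10, 6.43 and 6.60 in HFD livers. It had 5.91, 6.70, 6.41 and 6.57 in 4 HQ livers, 6.00, 6.36 and 6.66 in HR livers and 6.44, 6.57, 6.62, 6.43 and 5.91 in SD livers. HQR was higher by 0.40 ± 0.16 (adjusted p = 0.987) and higher in all 4 shared slides, by 0.16 to 0.51. Its other 2 probes gave 0.05 and 0.09 for the same comparison and correlated with the probe used at 0.38 and 0.29 over the livers. Acaa1b, a peroxisomal thiolase, had 8.09, 9.20 and 9.47 in HQR livers, against 7.80, 8.70 and 9.10 in HFD livers, a difference of 0.46 that did not pass. Its levels were 8.25, 9.17, 9.19, 8.62 and 8.77 in HQ, 8.34, 8.76 and 9.31 in HR and 8.27, 9.33, 8.87, 8.29 and 7.88 in SD livers. Of the other peroxisomal genes, Acaa1a (thiolase), Hsd17b4 (the second bifunctional enzyme), Pex11a (peroxisome division) and Abcd2 (transporter) lay between -0.48 and 0.37 in HQR against HFD.

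Omega oxidation starts with the Cyp4a hydroxylases. Cyp4a14 (probe at chr4:115158914-115158973, mm9, minus strand) had 6.01, 4.99, 7.63, 6.57 and 8.29 in HQ livers. The HR livers had 8.42, 8.34, 8.30, 7.78, 8.28 and 7.42, against 6.23, 7.06, 8.12, 7.16, 5.54 and 6.69 in HFD livers. HQR livers ranged from 6.16 to 8.57 with a median of 6.95, and the SD livers had 4.87, 8.60, 8.96, 7.93 and 4.87. All 6 HR livers were above the HFD mean, and 1 HFD liver, replicate 3, lay within the HR range. HR was higher than HFD by 1.29 ± 0.63 (2.45-fold, adjusted p = 1.00) and higher in 3 of the 4 shared slides, whose differences ran from -0.34 to 1.88. Cyp4a10 had 7.23, 8.46 and 8.78 in HR livers, against 6.37, 7.79 and 8.65 in HFD livers. It had 6.80, 6.26, 8.64, 7.60 and 8.98 in HQ livers and 6.87, 7.68 and 8.84 in HQR livers. HR was higher by 0.65 ± 0.49, and 3 further Cyp4a10 probes gave 0.88 to 1.21, while slide as a block gave 0.33. Relative to SD livers, whose Cyp4a10 levels were 6.59, 8.91, 9.34, 9.09 and 7.26, HFD stood at -0.62 ± 0.51 (adjusted p = 0.958).

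The acyl-CoA thioesterases release fatty acids from CoA. Of the 4 genes, Acot2 was near background, and the other 3 had a mean below SD in HFD, by -0.69 to -0.35, and above HFD in HR, by 0.33 to 1.29. The HFD difference of Acot1 turned to 0.21 when 1 array was left out. Acot1, the cytosolic enzyme, had lowest, median and highest values of 2.91, 3.12 and 4.77 in HR livers, against 1.00, 2.19 and 3.81 in HFD livers. HR was higher by 1.11 ± 0.66 (adjusted p = 1.00), and the groups overlapped. With slide as a block the Acot1 difference was 0.64. Acot1 had 1.73, 1.14, 3.14, 2.52 and 3.90 in HQ livers, 1.65, 2.04 and 3.27 in HQR livers and 0.43, 4.44, 5.28, 2.88 and 0.68 in SD livers. Acot3, a peroxisomal enzyme, had -2.66, -1.14 and 0.11 in HR livers, against -4.07, -2.20 and -1.65 in HFD livers. It was higher in HR by 1.29 ± 0.59 (adjusted p = 0.981), in 5 of 6 livers relative to the HFD mean, and by 0.75 with normexp. The Acot3 levels were -3.57, -2.86, -1.24, -3.15 and -1.85 in HQ livers, -3.96, -3.03 and -1.50 in HQR livers and -3.80, 0.32, -0.33, -2.73 and -2.08 in SD livers. Acot4, the peroxisomal enzyme whose promoter stretch is printed above, had 0.82, 1.55 and 1.79 in HR, against 0.42, 1.05 and 1.90 in HFD livers, a difference of 0.33 that was 0.09 with slide as a block. In HQR livers Acot4 had -0.27, 0.43 and 0.87, with all 6 livers under the HFD mean. The HQ livers had -0.25, 0.36, 1.71, 1.00 and 1.02, and the SD livers 0.68, 2.39, 2.13, 0.99 and 1.01. The HQR difference was -0.70 ± 0.32 from HFD (adjusted p = 0.987) and -1.05 ± 0.33 from SD (adjusted p = 0.389). It was negative in all 4 slides shared with HFD, by -1.03 to -0.43. The best ungapped match between the 60-base probes used for the Acot genes held 23 bases.

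Fabp1, which encodes the liver fatty acid binding protein and carries the promoter match with the fewest mismatches, had overlapping values in all diets, with 1 low HQ liver. Its values were 10.00, 8.71, 9.81, 10.10 and 10.23 in HQ livers. Livers of the larger groups had lowest, median and highest values of 9.17, 9.66 and 10.02 in HR, 9.58, 9.81 and 9.99 in HQR and 9.30, 9.80 and 10.09 in HFD livers, and the SD livers had 9.59, 9.53, 10.14, 9.81 and 9.55. The difference in HFD against SD was 0.05 (95% interval -0.39 to 0.49). Angptl4, a secreted inhibitor of lipoprotein lipase, had 7.65, 6.21, 7.72, 7.26 and 8.72 in HQ livers. The lowest, median and highest values were 7.20, 7.93 and 8.48 in HR, 7.26, 7.62 and 8.01 in HQR and 6.62, 7.84 and 8.49 in HFD livers, against 6.05, 8.61, 8.65, 8.69 and 7.24 in SD livers. It differed by -0.18 in HFD against SD and by 0.27 in HR against HFD.

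Leaving Acot2 aside, which was near background, the 6 highest differences in HR against HFD were those of Cyp4a14, Acot3, Acot1, Ehhadh, Pdk4 and Cyp4a10, from 1.29 down to 0.65, and the lowest of the 37 was that of Ppara, -0.38. With normexp the median over the 37 genes was -0.00 and that over all genes 0.16, and with slide as a block the median was 0.12. Several lists of cell type markers also leaned to 1 side between these groups, where 52.1% of all genes were above 0 and 4.92% at an unadjusted p under 0.05. All 7 Kupffer cell markers were above 0 in HR against HFD (median 0.55, 3 at an unadjusted p under 0.05), and their mean level was -0.58 to 0.62 in HR livers, against -1.28 to -0.34 in HFD livers. All 5 sinusoidal endothelium markers were above 0 (median 0.56, 3 at that p), with mean levels of 2.18 to 2.74 in HR livers, against 0.87 to 2.17 in HFD livers. All 5 hepatocyte markers were below 0 (median -0.32, 1 at that p), with mean levels of 5.40 to 6.09 in HR livers, against 5.84 to 6.76 in HFD livers. Above 0 were also 3 of 3 adipocyte (median 0.66), 5 of 5 bile duct and 3 of 3 muscle markers. So were 4 of 6 stellate cell and 2 of 3 lymphocyte markers and the 1 brown adipocyte marker, and none of these was at that p. Both erythrocyte markers were below 0 (median -0.72, 1 at that p). None of these markers passed the adjusted test in HR against HFD, and their part in the differences was not tested.

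Quercetin and resveratrol were compared at the same dose, 0.4% of the diet for 26 weeks. In HQ against HR, 10 of 37 genes were above 0 (background 48.2%) and the median difference was -0.15 (-0.01 over all genes). That median ran from -0.38 to 0.01 with 1 array left out and from -0.25 to 0.04 over the settings. Its sign was therefore not stable. An unadjusted p under 0.05 was reached by 2 genes (background 1.29%). These were Cyp4a14 at -1.39 ± 0.66 (95% interval -2.75 to -0.03) and Acot3 at -1.42 ± 0.61 (-2.68 to -0.15), both with an adjusted p of 1.00, and Acot3 was at -0.51 with normexp. Cyp4a14 in HQ livers ranged from 4.99 to 8.29, which contains 3 of the 6 HR values. For Cpt1a the interval was -0.49 to 0.95 and for Ehhadh -1.76 to 0.44, and these arrays leave room for differences of up to those sizes. The combination holds each compound at the lower dose of 0.2%, so it differs from HQ and HR in dose as well as in compound. In HQR against HR, 8 of 37 genes were above 0 (background 56.2%) and 4 were at an unadjusted p under 0.05 (2.77%). The median was -0.22, and 0.02 with slide as a block. The 4 genes were Acot3, Acot4 and Pdk4, which were lower, and Abcd3, which was higher, and their count was 1 to 10 over the settings. With 1 array left out, Acot3 ran from -2.04 to -1.49 (limma, unadjusted p up to 0.0213) and Acot4 from -1.15 to -0.90 (up to 0.0104). Pdk4 ran from -1.24 to -0.80 (up to 0.132) and Abcd3 from 0.34 to 0.55 (up to 0.0458). In HQR against HQ, 17 of 37 were above 0 (57.4%) with a median of -0.02, and 1 was at an unadjusted p under 0.05 (1.43%).

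While the diets did not separate the genes, some of them differed widely between livers of the same diet, and most varied in the same direction. The residual SD within diets was 1.21 for Acot1, 1.16 for Cyp4a14, 1.07 for Acot3, 0.93 for Ehhadh and 0.92 for Ech1. These 5 of the 37 were above the 90th percentile of all genes, a count near the share that this percentile sets for all genes. Acot1 was at the 97.9th. It was 0.41 for Ppara and lowest for Abcd3, at 0.25. The median over the 37 genes was 0.56, against 0.48 over all 21851 genes, and 24 of the 37 were above the median of all genes. The highest and lowest liver of a diet differed 9.85-fold in HQ, 2.00-fold in HR, 5.31-fold in HQR, 5.96-fold in HFD and 17.1-fold in SD for Cyp4a14. For Fabp1 the same ratios were between 1.33 and 2.87. In SD, replicates 1 and 5 were the lowest livers for Cyp4a14, Acot1, Ehhadh and Vnn1.

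After the diet means were subtracted, each of the other 36 genes was correlated with Cyp4a14 over the 28 livers. Cyp4a14 was picked as a textbook target with a wide range between animals. Pearson's r was above 0 for 34 of 36 genes, where 37.7% of all genes were, and its median over the 36 was 0.782, against -0.208 over all genes. Permutation within diets with 100000 resamples and Benjamini-Hochberg adjustment over the 36 relations left 33 genes at an adjusted p under 0.05 (31 by Spearman's rho). As a background, 43% of all genes had an r at least as far from 0 as the weakest of these, Fabp1 at 0.458, so a correlation of that size is common on these arrays. An r above 0.8 was reached by 17 of 36 genes and by 0.348% of all genes. The closest was Cyp4a10 (r = 0.946, rho = 0.958), then Acot1 (0.928, rho = 0.889), Ehhadh (0.911, rho = 0.856), Vnn1 (0.902, rho = 0.786) and Acadm (0.892, rho = 0.904). Each of these had the smallest p that the permutations can give (1e-05) for r. Ppara had r = 0.602 (rho = 0.680, adjusted p = 0.00428). Acot2, Acaa1b and Decr2 did not pass by r, and Acot2 is the gene that was near background.

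The relation was also computed without the 2 most distant livers, without the standard diet and with slide effects removed. The livers farthest from the median of Cyp4a14 were SD replicates 1 and 5. Without them r was 0.948 for Cyp4a10, 0.895 for Acot1, 0.874 for Ehhadh and 0.561 for Ppara. The diet means subtracted here were still those of all livers. SD replicates 1 and 5 therefore still entered these values, which do not show the relation free of them. Over the 23 high fat livers alone the median r was 0.718 with 34 of 36 above 0, and without the arrays of slide 8 it was 0.792. No background over all genes is given for either subset. With slide effects removed as well, the median was 0.719, against -0.016 over all genes. Only Abcd2 changed sign among the genes that passed, from -0.475 before to 0.0883 after slide effects were removed. Quantile normalization lowered r to 0.410 for Ppara, 0.158 for Abcd3 and 0.0407 for Acaa1a, and left it at 0.935 for Cyp4a10. Scaling to the array median raised r to 0.707 for Fabp1, 0.576 for Acaa1b and 0.407 for Decr2, so that r depends on the scaling in both directions for the weaker genes. All these values share the array and its scaling: Cyp4a14 correlated at -0.463 with the share of probes above background of an array. Mean levels of the 5 hepatocyte markers correlated at 0.554 with Cyp4a14, those of the 3 lymphocyte markers at -0.535 and those of the 3 muscle markers, of which Ckm was above background on only 7 arrays, at -0.563. The part of these in the shared variation was not tested.

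**Figure D3:**
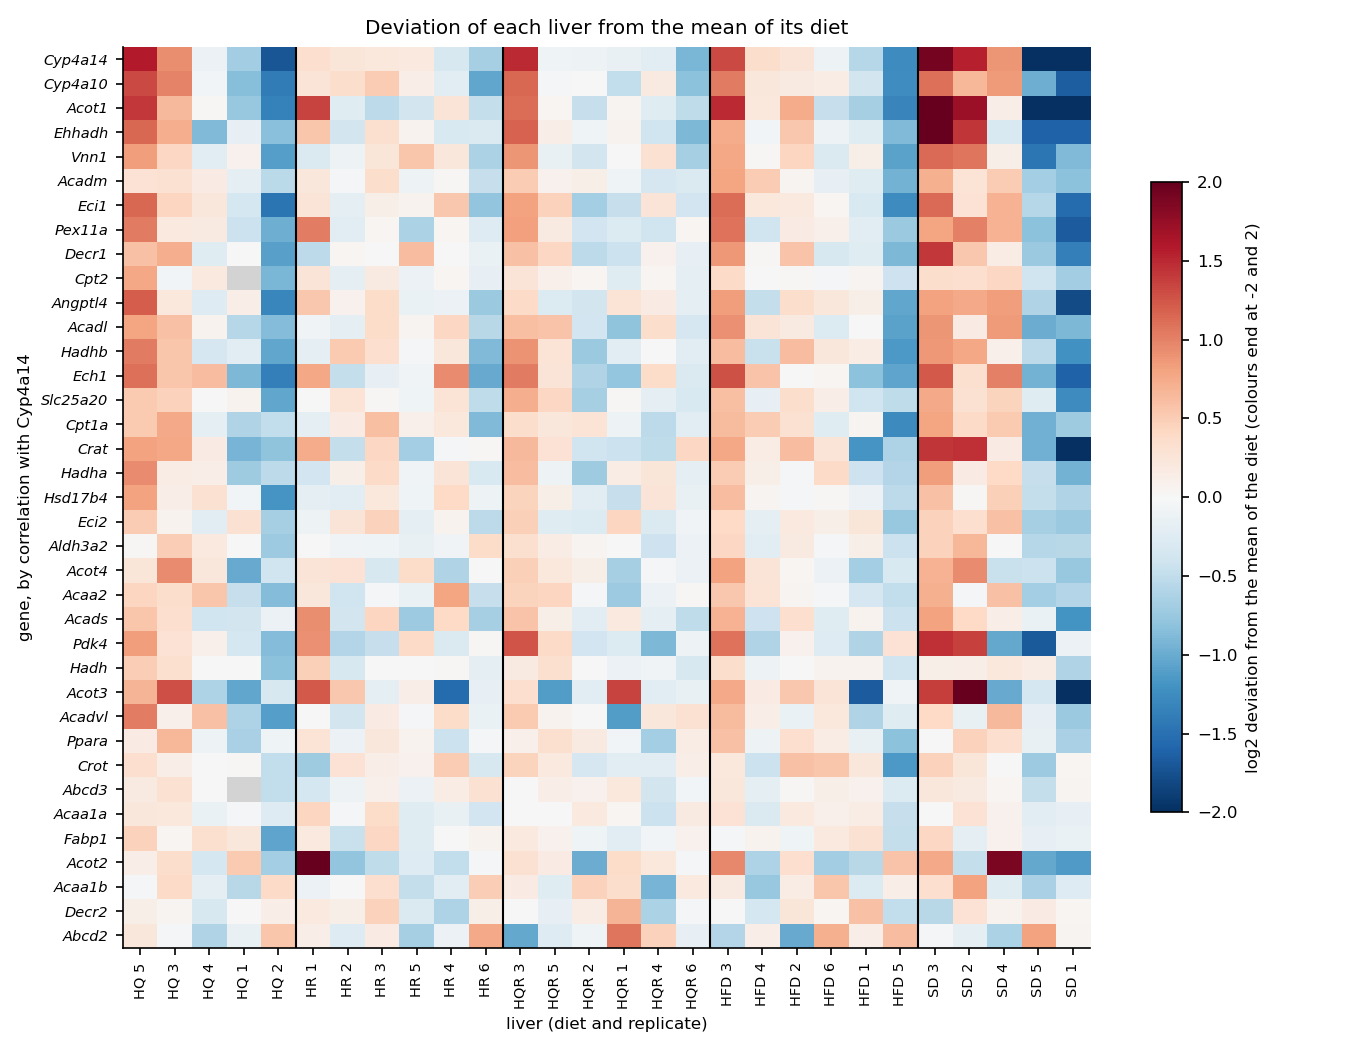
Deviation of each liver (columns, grouped by diet and ordered within it by Cyp4a14) from the mean of its diet, in log2 units, for the 37 genes (rows, ordered by correlation with Cyp4a14); grey marks the missing values of HQ replicate 1. Red and blue run down most rows of a column together, as in SD replicates 1 and 5 and HFD replicate 5, and fade in the lowest rows.

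**Figure D4:**
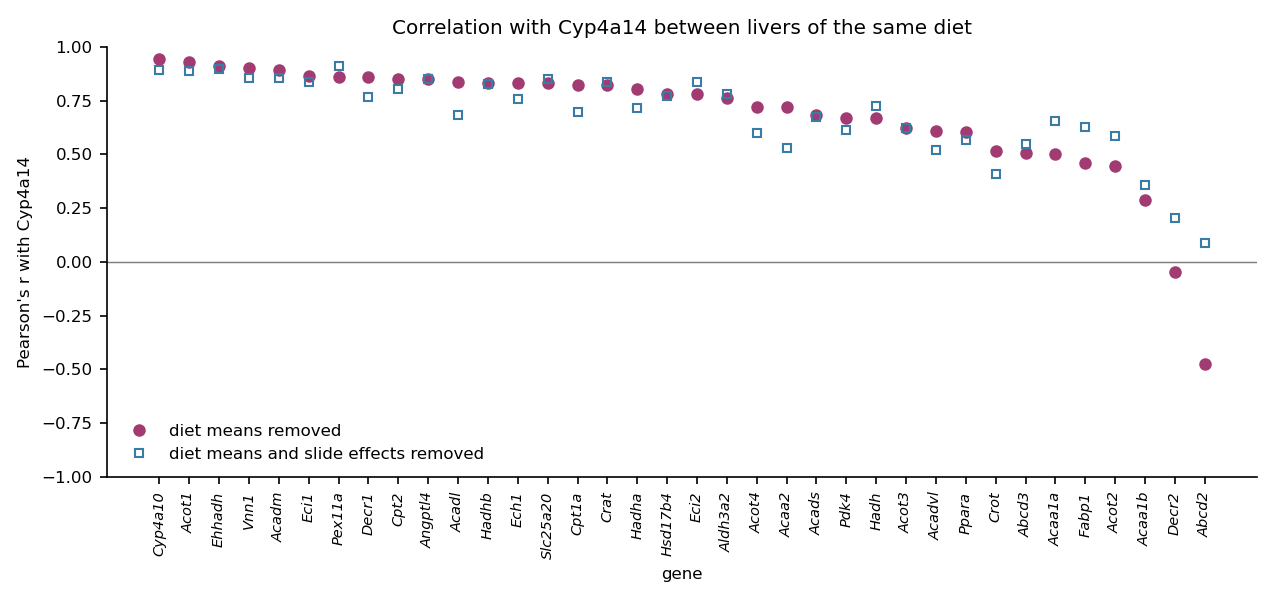
Pearson's r of each of the other 36 genes with Cyp4a14 over 28 livers (27 for Cpt2 and Abcd3), after removal of the diet means (filled circles) and also of slide effects (open squares). All but 2 circles are above 0, and Abcd2 moves from -0.475 to 0.0883.

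Among the roles, the median r of pairs of genes within a role was 0.764 for omega oxidation, 0.678 for the mitochondrial spiral, 0.662 for the carnitine shuttle and 0.639 for the genes of unsaturated fatty acids. It was 0.598 for the thioesterases, 0.506 for the other targets and 0.407 for the peroxisomal genes. Over all 666 pairs it was 0.572, with the highest value for Eci1 and Ech1 (0.950). No median over pairs of all genes is given beside these medians, so they do not show a relation particular to the set or its roles. Of the 20 genes of the whole array whose r with Cyp4a14 was highest, 8 belonged to the set. Another 4 were on the list of other pathway genes: Retsat (retinol saturase, 0.940), Cyp4a12b (a Cyp4a hydroxylase, 0.920), Ephx2 (soluble epoxide hydrolase, 0.891) and Acot8 (a peroxisomal thioesterase, 0.867). These ranks describe these 28 livers.

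Other genes of the pathway, a list of 60 that are not among the 37, gave no calls either. Of them 59 were measured and 0 passed in any comparison. In HFD against SD, 3 of the 59 were higher and 4 lower at an unadjusted p under 0.05, where 6.14% of all genes were. Cd36, a fatty acid translocase and also a target of PPARgamma, was at 1.65 ± 0.54 (adjusted p = 0.498). Ppargc1a, the coactivator that drives oxidative genes, was at -0.97 ± 0.29 (adjusted p = 0.419), and Acacb, whose product makes the malonyl-CoA that inhibits Cpt1a, at -0.91 ± 0.38. In HQ against HFD no gene of the list was below an unadjusted p of 0.05. In HR against HFD (background 4.92%), 2 were higher, both Cyp4a hydroxylases (Cyp4a31 at 1.34 ± 0.59 and Cyp4a12b at 1.22 ± 0.50), and 3 lower. Over the whole list, 28 of 59 were above 0 in HR against HFD (background 52.1%), with a median of -0.005. In HQR against HFD (background 1.36%), 2 were higher and 2 lower. The higher ones were Cyp4a12a, a hydroxylase, at 0.83 ± 0.32 and Acsl4, an acyl-CoA synthetase, at 0.77 ± 0.23. The lower ones were Fgf21, a fasting hormone that PPARalpha induces, at -1.81 ± 0.79 and G0s2, an inhibitor of adipose triglyceride lipase, at -1.41 ± 0.65 (adjusted p = 0.987 for all 4). Between livers of the same diet, 47 of the 59 had an r above 0 with Cyp4a14, with a median of 0.600.

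Of the 9 genes with several probes, 5 had further probes that correlated with the one used at r of 0.653 to 0.944 over the livers, and 4 had further probes at -0.198 to 0.521. Other probes of Decr1, Cpt1a, Acot4 and Crot correlated with the one used at 0.944, 0.863, 0.720 and 0.671 over the livers, and those of Cyp4a10 at 0.653 to 0.930. Those of Hadha correlated at -0.198 and 0.481, those of Acaa1a at 0.310 and 0.521 and that of Abcd2, which is dim, at -0.011, so that the levels of these 3 genes and of Abcd3 depend on the probe.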

How the data were processed

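Total RNA of each liver was labelled with Cy3 and put on a whole mouse genome array. Per the file headers, the intensity of each spot was extracted and background-subtracted by Agilent Feature Extraction. The deposited value table holds a standardised score per probe, which was used only as an alternative, after scaling to log2 units. Intensities were put on the log2 scale here, spots of a probe were averaged, and the 75th percentile of each array was subtracted. Probes well above background on at least 5 arrays were kept (32078 probes, 21851 genes), the brightest probe of a gene standing for it. Probe coordinates are those of mm9 in the files.

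All arrays entered 1 model in limma 3.58.1 (R 4.3.3), with two-sided tests and Benjamini-Hochberg adjustment over all genes. Correlations were permuted in Python with numpy and scipy. The model was tested on simulated data: of 100 genes changed 4-fold in HFD against SD 84 were called, and of 100 changed 2-fold 39. The simulated noise was independent between genes, without slide effects, and the changed genes were drawn at random from all genes. These shares therefore do not hold for genes with a wide spread, such as Acot1 and Cyp4a14. The number of arrays limits the precision. The members, the lists and the tests were chosen with earlier results of these data known. Levels (in every liver, or the lowest, median and highest of a group of 6) are given for Ppara, Cpt1a, Cyp4a10, Cyp4a14, Pdk4, Angptl4, Fabp1, Ehhadh, Acot1, Vnn1 and the 3 smallest p of HFD against SD and of each supplemented group against HFD. Livers that share a replicate number deviated together in HFD and SD (5 pairs, r of 0.217 to 0.698) and not in every pair of any other 2 groups, so the block of replicate number was taken as the paired fit for HFD against SD, on the evidence of the values and not of the labels. In replicates 1 and 2 the HFD and SD arrays shared a slide, and in replicates 4 and 5 a scan day. The number cannot be told apart from slide or day in those pairs. Alternatives changed the background correction, normalization, probe filter, probe choice, spread estimate, and blocks of slide, of scan day and of replicate number, and left out single arrays. Leaving out slide 8 and restricting the correlations to the high fat livers were added after the data were seen.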

Additional observations from a re-analysis of the deposited data

Results flagged for a closer look

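In 85 groups of livers checked for the 17 genes named with levels, 10 single livers stood apart from the rest of their diet by Dixon's criterion. Chance alone flags about 1 in 20 groups, or 4.25 of 85. The values are log2 signal relative to the array's 75th percentile. HQR replicate 3 was high for both Cyp4a14 (8.57, nearest liver 6.99) and Acot1 (3.27, nearest 2.21), and HQR replicate 4 was low for Ppara (5.38, nearest 6.01). HQ replicate 2 was low for Fabp1 (8.71, nearest 9.81). HR replicate 6 was high for Aldh3a2 (5.18, nearest 4.81). SD replicate 1 was low for Hadh (3.11, nearest 3.83), and SD replicate 5 was low for Abcd3 (5.91, nearest 6.43). HFD replicate 1 was low for Acot3 (-4.07, nearest -2.47). For Acot2, which was near background, HR replicate 1 was high (-2.35, nearest -4.45) and HQR replicate 2 was low (-6.29, nearest -5.32).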

How the results depend on the processing

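The count of genes of the set that passed was 0 under every alternative in 11 of the 12 comparisons. In the mean of the 4 high fat groups against SD it was 1 with slide as a block, 1 with slide as a random block and 1 with quantile normalization and slide as a block, and the gene was Vnn1 each time (1.25, 1.20 and 1.28, adjusted p = 0.0415, 0.0277 and 0.0351). With normexp its adjusted p was 0.722. The correlation of Abcd2 with Cyp4a14 was 0.0883 with slide effects removed, against -0.475. The causes were not tested. With the replicate block, 0 genes of the set passed in HFD against SD, the median was -0.05, and no call changed. Counts over all genes depended more on the setting: 10 to 81 in HFD against SD (25 reported), 0 to 18 in HQ, 0 to 49 in HR and 6 to 113 in HQR against SD (8, 12 and 11 reported), and 18 to 203 in the high fat groups against SD (35 reported). Against HFD they were 0 to 1 in HQ, 1 to 8 in HR and 0 to 9 in HQR.

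Leaving out each array in turn gave medians over the 37 genes of -0.23 to 0.14 in HFD against SD, -0.18 to 0.19 in HQ, 0.07 to 0.36 in HR and -0.25 to 0.06 in HQR against HFD. Other settings gave -0.17 to 0.11, -0.30 to 0.16, -0.00 to 0.31 and -0.20 to 0.05 for these comparisons. Against SD the other settings gave -0.26 to -0.01 in HQ, -0.03 to 0.31 in HR and -0.20 to 0.19 in HQR, with 1 to 4, 1 to 7 and 3 to 9 genes at an unadjusted p under 0.05. Normexp shifted the median of all genes to -0.13 in HFD against SD and to 0.24 in HQ and 0.16 in HR against HFD, so that its differences are relative to those values.
The stricter probe filter left out Abcd2 and Acot2, and the fit with an intensity trend left out Cpt2 and Abcd3, so both counted 35 genes.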
